A study of Homo sapiens with 4 samples.

Results

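The 9 genes described here stand at the meeting point of the p53 pathway and the cell cycle. They are the p53 targets MDM2, CDKN1A, PMAIP1, BBC3, BAX, GADD45A and SESN1, and the further CDK inhibitor genes CDKN1B and CDKN2C. They were listed by name for their roles, and a gene counted as measured where a transcript cluster of the array carried its symbol alone. That held for 7 of the 9, out of 22465 genes with a value in all. BBC3, which encodes the cell death protein PUMA, lies in a cluster that carries the symbols of further genes, and the platform table used here names no cluster for CDKN2C, so neither was given a value.

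The cells were SH-SY5Y, an established human neuroblastoma line that can be turned into neuron-like cells. Those of the first group carried a control shRNA (2 arrays) and those of the second an shRNA against LSD1+8a (2 arrays), delivered by infection per the series' design. KDM1A encodes LSD1, a histone demethylase, and LSD1+8a is its form with exon 8a, made in neurons. Both groups were treated with 10 μM retinoic acid over 4 days and then with 50 ng/mL of the neurotrophin BDNF over 3 days in medium without serum. The labels do not say how many hairpins, clones or separate cultures stand behind the arrays, so the spread between replicates may be technical.

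In a stressed or damaged cell the transcription factor p53 switches on genes that halt division and genes that kill the cell. MDM2 is the ubiquitin ligase that p53 induces and that in turn degrades p53. CDKN1A (p21) and its relative CDKN1B (p27) bind and block cyclin-dependent kinases (CDKs), the INK4 proteins such as CDKN2C (p18) block CDK4 and CDK6, and neurons leaving the cell cycle are known to use such inhibitors. With CDKs blocked, the pocket proteins of the RB family hold the genes of DNA replication and mitosis in check.

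MDM2 has an internal promoter known for its p53 response elements, and it is shown here because MDM2 was lower with the hairpin. RefSeq lists several starts for the gene, and the 300 bases around the start used below (GRCh38.p14, chr12:68808767-68809066, plus strand, 250 bases before the start and 50 after it) hold a pair of matches. Capitals mark matches to the p53 response element, searched as 2 tandem half-site decamers without a spacer, a motif of 20 bases that reads the same on both strands.
MDM2: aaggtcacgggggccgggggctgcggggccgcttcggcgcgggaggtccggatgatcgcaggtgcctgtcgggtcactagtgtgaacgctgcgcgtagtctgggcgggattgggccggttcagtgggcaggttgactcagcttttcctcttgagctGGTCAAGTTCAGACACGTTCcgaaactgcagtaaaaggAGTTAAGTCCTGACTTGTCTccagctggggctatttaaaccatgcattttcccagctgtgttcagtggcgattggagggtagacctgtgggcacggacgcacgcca

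The first match differs from the motif at 2 of 20 bases and lies 94 to 75 bases before the start. The second differs at 3 bases and lies 56 to 37 bases before it. Of 34796 distinct RefSeq promoter windows of this length, 0.652% held a match with up to 2 mismatches and 5.21% one with up to 3. Windows were at hand for 8 of the 9 listed genes, in 15 windows, some of them overlapping. A match with up to 3 mismatches was found for 4 genes, a count per gene that is unlike the shares per window. The matches of the remaining genes each had 3 mismatches and are shown to set them beside those of MDM2.
PMAIP1: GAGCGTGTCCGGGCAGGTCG
CDKN1B: AGGCCAGCCAGAGCAGGTTT
SESN1: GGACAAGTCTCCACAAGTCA

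The PMAIP1 match lies in chr18:59899746-59900045 on the plus strand, 185 to 166 bases before the start. That of CDKN1B lies in chr12:12717118-12717417 on the plus strand, 231 to 212 bases before the start, and that of SESN1 in chr6:109008939-109009238 on the minus strand, 49 to 30 bases before it. Windows of CDKN1A, BAX, BBC3 and CDKN2C had none, which says only that these letters are not in those windows. A match describes the letters and is no evidence of binding. The array gives 1 value for the whole MDM2 gene, so transcripts from its separate starts could not be told apart.

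Of the 7 measured genes, 3 were lower with the LSD1+8a shRNA and none was higher. PMAIP1, MDM2 and CDKN1B fell by 0.44, 0.39 and 0.32 on the log2 scale (SE 0.09, 0.10 and 0.08, with 2 arrays a group). CDKN1A, the main p53-driven CDK inhibitor, differed by 0.27 in the other direction and did not pass. BAX, GADD45A and SESN1 did not pass either. Over all 22465 genes, 23.3% passed the same threshold (limma, Benjamini-Hochberg adjusted p under 0.05), 12.1% of them higher and 11.2% lower as shares of all genes. Beside those shares stand 0 of 7 genes higher and 3 of 7 lower. Brighter genes were called lower more often. A fit of only the 11232 genes above the median level, which drops SESN1, called 1323 higher and 2236 lower. The same 3 genes were called lower there.

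MDM2 (TC12000606.hg.1) read 8.33 and 8.56 under the control shRNA but 8.03 and 8.08 under the LSD1+8a shRNA, in log2 signal. Both LSD1+8a shRNA arrays lay below both control arrays, and the control arrays were the more spread. The means were 8.45 ± 0.17 and 8.05 ± 0.03 (SD, n = 2), a difference of -0.39 ± 0.10 (SE), or 1.31-fold lower (limma), at an adjusted p of 0.0389. After cyclic loess between arrays the difference was -0.30 (adjusted p = 0.0693) and after quantile normalization -0.29 (adjusted p = 0.0707), so the call was lost under both. It was also lost without any 1 array, with differences of -0.51 to -0.27 and adjusted p of 0.0666 to 0.199.

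CDKN1A (TC06000532.hg.1) was at 7.84 and 7.94 in the control pair and at 8.33 and 7.99 in the LSD1+8a pair. The groups did not overlap, yet LSD1+8a replicate 2 stood only just above the higher control array. The means were 7.89 ± 0.07 and 8.16 ± 0.24 (SD, n = 2), a difference of 0.27 ± 0.12 (SE), with a limma 95% interval of -0.01 to 0.55 and an adjusted p of 0.125. Replicate 1 of the LSD1+8a group decided its size. Without that array the difference was 0.10 (limma adjusted p = 0.585), and without LSD1+8a replicate 2 it was 0.44 (adjusted p = 0.0441). On the same array the 4 hybridisation control features averaged 10.29 against 10.65 to 10.70 on the other 3 arrays, and the 4 poly-A control features 7.50 against 7.85 to 8.35. Their part in the CDKN1A value was not tested.

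CDKN1B (TC12000178.hg.1) read 8.49 and 8.52 in control cells, against 8.16 and 8.20 with the LSD1+8a shRNA. Replicates were close in both groups and the groups were well apart. The means were 8.51 ± 0.016 and 8.18 ± 0.03 (SD, n = 2), a difference of -0.32 ± 0.08 (SE), or 1.25-fold lower (limma), at an adjusted p of 0.0375. With 1 array left out the difference stayed between -0.34 and -0.30, but each such fit lost the call (limma adjusted p of 0.0702 to 0.195). It was also lost after cyclic loess (-0.23, adjusted p = 0.0806) and after quantile normalization (-0.22, adjusted p = 0.0784).

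**Figure D1:**
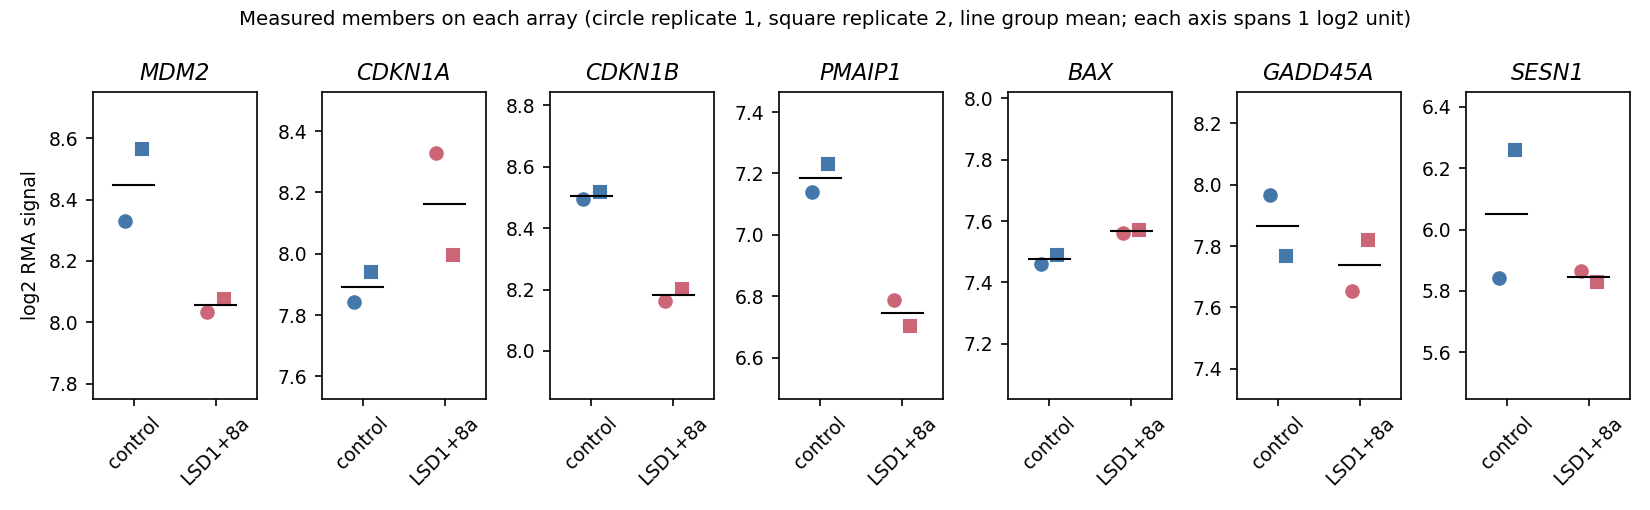
Log2 RMA signal (vertical axes, each spanning 1 log2 unit) of the 7 measured genes on each array, control shRNA in blue and LSD1+8a shRNA in red, with circles for replicate 1, squares for replicate 2 and a line at each group mean. MDM2, CDKN1B and PMAIP1 are lower on both LSD1+8a shRNA arrays, while the groups overlap for GADD45A and SESN1.

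Among the genes of cell death, PMAIP1 fell and BAX did not pass. PMAIP1 encodes NOXA, a BH3-only protein that binds the survival protein MCL1. Its cluster (TC18000213.hg.1) read 7.14 and 7.23 under the control shRNA but 6.79 and 6.70 under the LSD1+8a shRNA, so the groups were apart by more than either pair's spread. The means were 7.19 ± 0.06 and 6.75 ± 0.06 (SD, n = 2), a difference of -0.44 ± 0.09 (SE), or 1.36-fold lower (limma), at an adjusted p of 0.0245. PMAIP1 was also called after cyclic loess (-0.43, adjusted p = 0.0305) and after quantile normalization (-0.41, adjusted p = 0.0353). Without LSD1+8a replicate 1 it was called too (-0.48, adjusted p = 0.0460), while without control replicate 1, control replicate 2 or LSD1+8a replicate 2 it was not (adjusted p = 0.0666, 0.194 and 0.0589).

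BAX, the protein that perforates the outer mitochondrial membrane, had close replicates. Its cluster (TC19000716.hg.1) was at 7.46 and 7.49 in the control pair and at 7.56 and 7.57 in the LSD1+8a pair. The groups did not overlap, but the difference of 0.09 ± 0.08 (SE; limma adjusted p = 0.401) was close to the median of all genes, 0.08. Its limma 95% interval ran from -0.10 to 0.28.

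GADD45A and SESN1 encode a growth arrest protein of the DNA damage response and a sestrin that restrains the growth kinase complex mTORC1. GADD45A (TC01000745.hg.1) read 7.97 and 7.77 in control cells, against 7.65 and 7.82 with the LSD1+8a shRNA. SESN1 (TC06001997.hg.1) read 5.84 and 6.26 under the control shRNA but 5.86 and 5.83 under the LSD1+8a shRNA. In both the groups overlapped, and for SESN1 the single high value was control replicate 2. GADD45A differed by -0.13 ± 0.11 (SE; limma adjusted p = 0.361), with a 95% interval of -0.38 to 0.12. SESN1 differed by -0.20 ± 0.14 (SE; limma adjusted p = 0.271), with a 95% interval of -0.52 to 0.11, and by 0.0050 without control replicate 2. The SESN1 values lay near the background feature of GC count 18 (5.88 to 6.13 over the 4 arrays) and above the background median over GC counts 13 to 18 (4.43 to 4.72). Of the genes described below, APAF1, ATR, CCNE2, CCND2, CDK1, NDC80, CDKN2A, CDKN2B, CD44, GFAP and CDH19 also had values at or below the GC 18 mark. For CDK1 these were the LSD1+8a shRNA values, 5.87 and 5.89 against marks of 6.11 and 6.13 on those arrays.

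**Figure D2:**
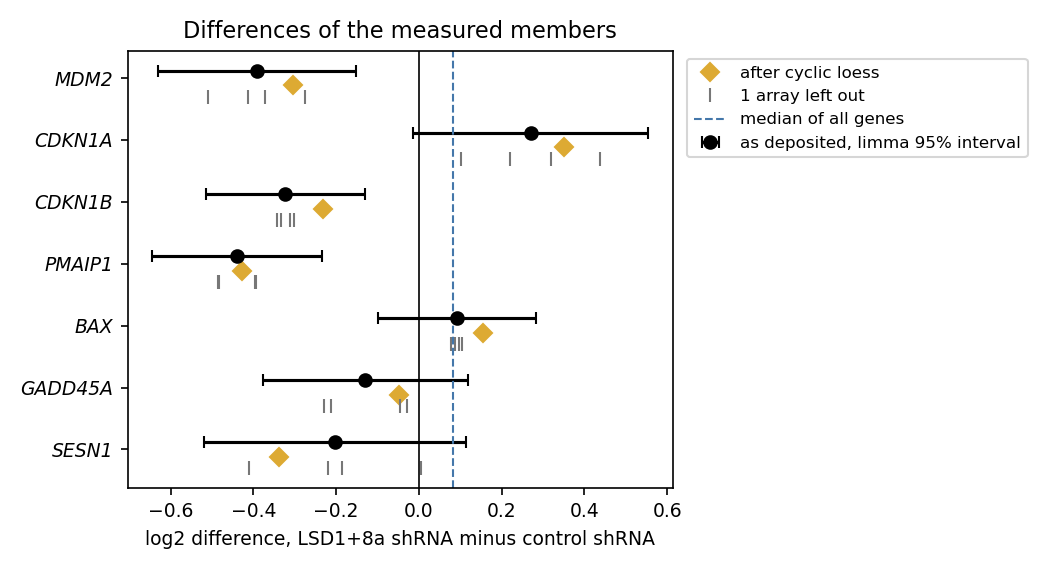
Log2 difference (horizontal axis, LSD1+8a shRNA minus control shRNA) of the 7 measured genes, with limma's 95% interval for the deposited values, the value after cyclic loess, and 4 ticks for the fits with 1 array left out. The intervals of MDM2, CDKN1B and PMAIP1 lie below 0 and the median of all genes (0.08), and those of the other 4 span 0.

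The groups did not overlap for 5 of the 7 genes, against 74.4% of all genes. That share is near the background and sets the genes apart in no way. The smallest exact permutation p that 2 arrays against 2 allow is 0.333, so each call leans on the spread that limma pools over all genes. Without either control array, limma called 0 of all genes, against 9835 and 5339 at an unadjusted p under 0.05 without control replicate 1 and 2. The differences also need setting against a shift that depended on level. The median difference was 0.21 for the 3893 genes whose mean log2 signal lay from 5 to 6, 0.07 between 6 and 7, -0.05 between 7 and 8 and -0.09 between 8 and 9. MDM2 and CDKN1B lie in the range from 8 to 9, PMAIP1 in that from 6 to 7.

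The direction of calls over all genes also moved with the scaling. Of all calls 51.9% were higher as deposited, 31.0% after cyclic loess and 28.8% with the array medians set equal. After cyclic loess 4.15% of all genes were called higher and 9.23% lower, beside 0 and 1 of the 7, and the 1 was PMAIP1. KDM1A, the gene behind the hairpin's target, was lower by 0.41 ± 0.09 (SE; limma adjusted p = 0.0299), and 0.31 lower after cyclic loess, where it was not called (adjusted p = 0.0513). It is 1 value for the cluster, from which the form with exon 8a could not be read.

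Few of the wider set of p53 target genes passed the test. Of 40 listed, 36 were measured, 0 were called higher, 5 lower and 31 did not pass, and the median difference was -0.08 against 0.08 for all genes. With 1 array left out 0 to 2 were called lower, 0 of them without either control array. Calls lower were thus 13.9% of the list, beside 11.2% of all genes. The 5 were PMAIP1, MDM2, APAF1, PPM1D and CCNG1. APAF1, the scaffold of the apoptosome, was at 6.48 and 6.63 in the control pair and at 5.63 and 6.03 in the LSD1+8a pair. It had the largest difference of the list, -0.72 ± 0.14 (SE; limma adjusted p = 0.0222), and was also called after cyclic loess (adjusted p = 0.0288). CCNG1, a cyclin induced by p53, fell by 0.36 (limma adjusted p = 0.0440) and was not called after cyclic loess (adjusted p = 0.0719).

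Among the genes that act on p53, both activating kinases and inhibitors were called lower. Of 17 listed, 14 were measured, 0 were called higher, 8 lower and 6 did not pass, with a median of -0.31. Over all genes 12.1% were called higher and 11.2% lower, and the median was 0.08. CHEK1, the replication checkpoint kinase, read 7.10 and 7.23 in control cells, against 6.46 and 6.49 with the LSD1+8a shRNA, a difference of -0.69 ± 0.09 (SE; limma adjusted p = 0.00975). ATR, the kinase upstream of CHEK1, fell by 0.57 and ATM, the kinase of double-strand breaks, by 0.66 (limma adjusted p = 0.0281 and 0.0412). Beside these activators fell genes that restrain p53. PPM1D, a phosphatase that reverses p53 activation and is itself a p53 target, fell by 0.37, and COP1, a ubiquitin ligase for p53, by 0.33 (limma adjusted p = 0.0316 and 0.0391). After cyclic loess 3 of the 14, CHEK1 and ATR among them, were called lower, beside 9.23% of all genes. ATM, PPM1D and COP1 were not called there (limma adjusted p = 0.0604, 0.0506 and 0.0687). With 1 array left out 0 to 3 were called lower, 0 of them without either control array.

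**Figure D3:**
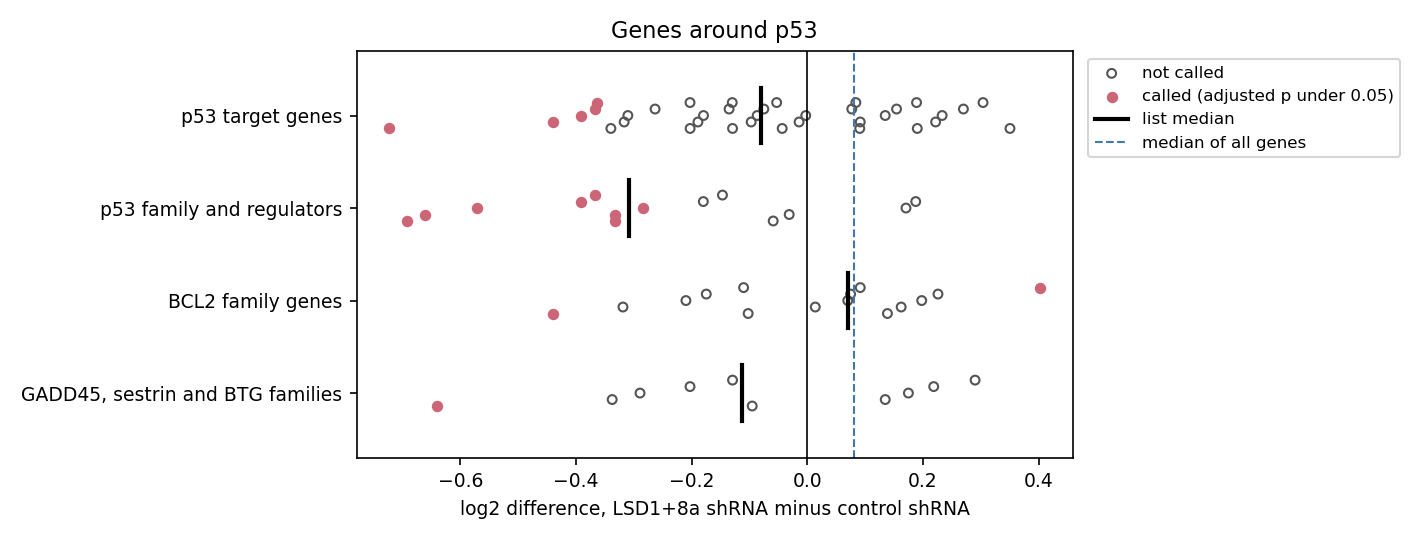
Log2 difference (horizontal axis, LSD1+8a shRNA minus control shRNA) of each measured gene in 4 lists around p53, filled where called and open where not, with the list's median as a bar and the median of all genes as a dashed line. Of the p53 targets 5 of 36 (13.9%) are filled, all on the lower side, beside 11.2% of all genes called lower. The list's median is -0.08.

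The BCL2 family decides on cell death. Of 16 listed, 15 were measured, 1 was called higher, 1 lower (PMAIP1) and 13 did not pass, with a median of 0.07. Each direction thus held 6.67% of the family, below the 12.1% and 11.2% of all genes. The rise was that of BOK, a relative of BAX, which read 6.63 and 6.51 under the control shRNA but 6.96 and 6.99 under the LSD1+8a shRNA. Its difference was 0.40 ± 0.09 (SE; limma adjusted p = 0.0284), and it was also called after cyclic loess (adjusted p = 0.0331). No gene of the family was called higher with any 1 array left out or with adjustment over all transcript clusters. The adjustment over all clusters called only 56 of 67528 higher. In the GADD45, sestrin and BTG families, which slow growth, 10 of 11 genes were measured. Of these, 0 were called higher and 1 lower, beside 12.1% and 11.2% of all genes. That was TOB1, an antiproliferative protein of the BTG family, which was at 7.58 and 7.78 in the control pair and at 7.001 and 7.08 in the LSD1+8a pair. It fell by 0.64 ± 0.10 (SE; limma adjusted p = 0.0148).

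Genes of DNA replication and mitosis and the CDK inhibitor genes are set side by side here. Of 44 genes of DNA replication and mitosis, 42 were measured, 36 were called lower, 0 higher, and 6 did not pass, with a median of -0.59. Over all genes 11.2% were called lower and 12.1% higher. Of the 7 CDK inhibitor genes, 6 were measured, 0 were called higher, 1 lower (CDKN1B) and 5 did not pass, beside 12.1% and 11.2% of all genes. At that background a count of 0 of 6 higher says nothing particular about these genes. Their median was 0.22 against 0.08 for all genes, 4 of the 6 lay above 0, and 1 was called higher after quantile normalization or cyclic loess. The median lies between CDKN2A and CDKN2B, at a level from 5 to 6, where the median of all genes was 0.21. After cyclic loess the median of the CDK inhibitor genes was 0.05. Without either control array 0 of the 42 were called, as were 0 of all genes, and without LSD1+8a replicate 1 or replicate 2 the counts were 28 and 25. The proliferation list was known from earlier results of these data, so its count is a description. CDK1, the mitotic kinase, read 6.78 and 7.15 in control cells, against 5.87 and 5.89 with the LSD1+8a shRNA. PCNA, the clamp of DNA polymerase and a binding partner of p21, read 8.07 and 8.29 under the control shRNA but 7.10 and 7.26 under the LSD1+8a shRNA. Their falls of 1.08 and 1.00 on the log2 scale were about 3 times the size of the largest difference among the measured CDK inhibitor genes (CDKN1B). The others named by size were the primase gene PRIM1 and the kinesin and kinetochore genes KIF11, NDC80 and NUF2, with differences of -1.07, -0.98, -0.95 and -0.94.

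Among the CDK inhibitor genes outside the 9, CDKN2D came nearest to a call. It encodes p19, an INK4 protein, and was at 7.61 and 7.48 in the control pair and at 7.81 and 7.84 in the LSD1+8a pair. The difference of 0.28 ± 0.09 (SE) had a limma adjusted p of 0.0554 as deposited and of 0.0489 after cyclic loess (0.35), where the gene was called. CDKN2A, which encodes p16 and ARF, differed by 0.20 and its neighbour CDKN2B (p15) by 0.24 (limma adjusted p = 0.101 and 0.151). After cyclic loess these were 0.04 and 0.06. CDKN1C (p57), the third Cip/Kip gene, differed by -0.01 ± 0.09 (SE; limma adjusted p = 0.903).

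Genes of the kinases that the inhibitors block, and of the pocket proteins, were lower in part. Of 21 G1 cyclins, CDKs, E2F partners and pocket proteins, all 21 measured, 0 were called higher, 9 lower and 12 did not pass. Their median was -0.32, and over all genes 12.1% were called higher and 11.2% lower. Without either control array 0 of them were called. CDK2, the main target of p21 and p27, read 7.73 and 7.81 in control cells, against 7.17 and 7.07 with the LSD1+8a shRNA (-0.65 ± 0.09, SE; limma adjusted p = 0.0115). CDK6, a target of the INK4 proteins, read 9.13 and 9.13 under the control shRNA but 8.11 and 8.40 under the LSD1+8a shRNA (-0.88 ± 0.11, SE; limma adjusted p = 0.00943). Cyclin E2 (CCNE2), the partner of CDK2, fell by 0.88. The pocket protein genes RBL1 (p107) and RBL2 (p130) fell by 0.93 and 0.54, and LIN9, a subunit of the DREAM and MuvB complexes, by 0.61. All 6 were also called after cyclic loess, as were 8 of the list, beside 9.23% of all genes lower. Of the 21 genes, 4 differed in the other direction as deposited. Among these were CCND1, CCND2 and CCND3, by 0.26, 0.27 and 0.24, and none was called (limma adjusted p = 0.243, 0.0539 and 0.0772). CDK4, a further target of the INK4 proteins, differed by -0.22 and was not called (limma adjusted p = 0.0859).

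Some genes that remove or induce the inhibitors were called lower as well. Of 13 listed, all 13 measured, 0 were called higher, 6 lower and 7 did not pass, with a median of -0.17. Over all genes 12.1% were called higher and 11.2% lower. The 6 became 3 without LSD1+8a replicate 1 and 0 without either control array. SKP2, the F-box protein that marks p27 for degradation, was at 8.75 and 8.70 in the control pair and at 7.97 and 7.95 in the LSD1+8a pair. It fell by 0.77 ± 0.08 (SE; limma adjusted p = 0.00685), its cofactor CKS1B by 0.60 and the shared subunit SKP1 by 0.41. DTL, the receptor through which PCNA-bound p21 is degraded, fell by 0.74 and the scaffold gene CUL4B by 0.49. FOXO3, a transcription factor known to induce CDKN1B, read 9.62 and 9.47 in control cells, against 9.13 and 9.02 with the LSD1+8a shRNA, a fall of 0.47 ± 0.09 (SE; limma adjusted p = 0.0249). Of the 6, FOXO3 was not called after cyclic loess (adjusted p = 0.0518). These are transcript levels, and the amounts of p21 and p27 protein, which this machinery sets, were not measured.

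**Figure D4:**
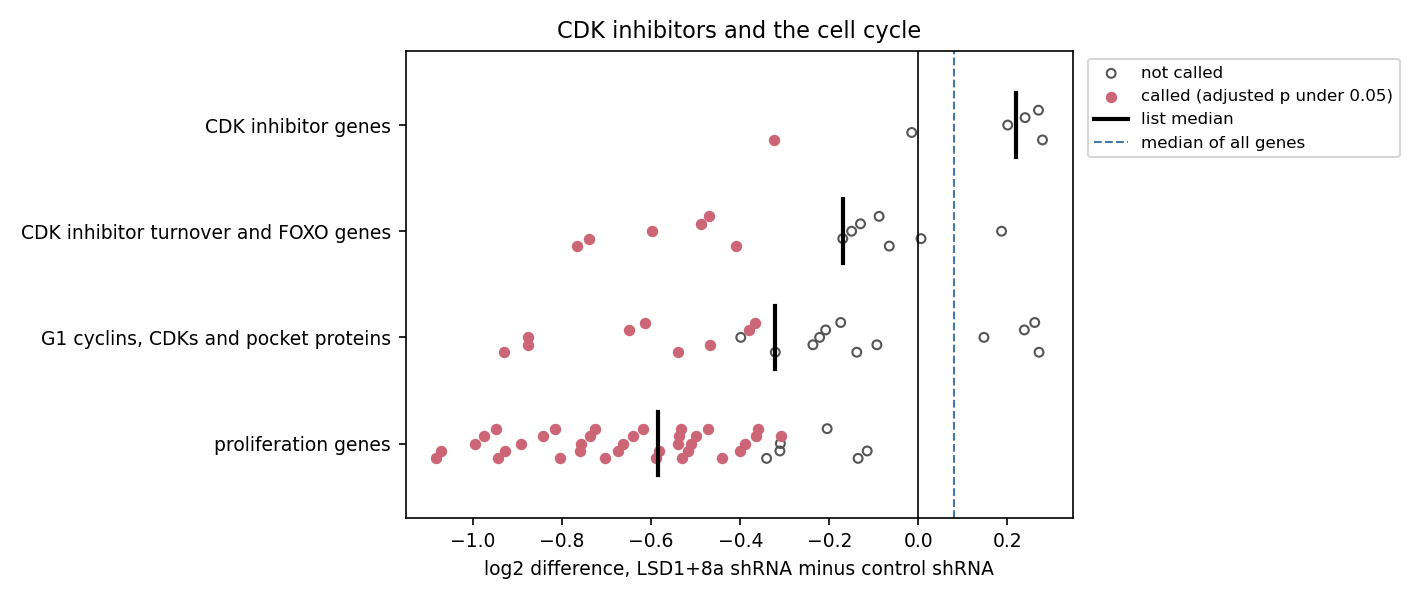
Log2 difference (horizontal axis, LSD1+8a shRNA minus control shRNA) of each measured gene in 4 cell cycle lists, filled where called and open where not, with the list's median as a bar and the median of all genes as a dashed line. The CDK inhibitors lie between -0.32 and 0.28 with a median of 0.22 (0.05 after cyclic loess, not drawn). All 42 proliferation genes lie below 0, with a median of -0.59.

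Markers of cell identity stood beside these results as follows. Of the adrenergic markers of the labelled line, DBH read 11.22 to 11.86 and HAND2 9.65 to 9.84 over the 4 arrays, while TH read 6.38 to 6.86, near the array medians of 6.16 to 6.25. The mesenchymal marker TWIST1 read 8.47 to 8.84. Levels of different probes cannot be ranked and there is no detection call, so these values do not settle the cell type. Of 7 measured adrenergic neuroblast markers (of 9), GATA3 and TH were called higher (0.47 and 0.35) and ISL1 lower (-0.46). Of 7 measured neuron markers (of 8), GAP43 and DCX were called higher, by 0.95 and 0.87. Of 8 mesenchymal and fibroblast markers (of 9), CD44 was called higher and TWIST1 lower. The median difference of these 8 was 0.11, and 5 of them lay above 0. Their summed linear signal, most of it from TWIST1, was 769 and 773 in the control pair, against 664 and 701 in the LSD1+8a pair. Of 4 Schwann and glial markers (of 6), SOX10 and GFAP were called higher, by 0.34 and 0.33. That list's summed linear signal was 213 and 196 in the control pair, against 240 and 249 in the LSD1+8a pair, and CDH19 read 2.47 to 2.65. Beside the marker counts, 12.1% of all genes were called higher and 11.2% lower. After cyclic loess TH, CD44, TWIST1, SOX10 and GFAP were no longer called (limma adjusted p = 0.0614, 0.271, 0.0690, 0.0570 and 0.0945). With adjustment over all transcript clusters no marker of these lists was called. That adjustment called only 56 of all 67528 clusters higher and 329 lower. RMA values have no true 0, so no marker could be called absent, and the part of these markers in the results was not tested. In bulk RNA, fewer dividing cells and less RNA per dividing cell cannot be told apart.

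The genes whose pattern over the 4 arrays was most like that of MDM2 were GART, KNSTRN and PPP4R2. Their Euclidean distances to it, between values centred on each gene's mean, were 0.0105, 0.0166 and 0.0174 among 17084 protein-coding genes. GART encodes an enzyme of purine synthesis, KNSTRN a kinetochore protein and PPP4R2 a phosphatase subunit. For CDKN1A they were MBOAT7 (0.0243), PIGT (0.0265) and TMEM127 (0.0304). Each of these 3 was, like CDKN1A, highest on LSD1+8a replicate 1. MBOAT7 read 7.49 and 7.58 under the control shRNA but 7.95 and 7.65 under the LSD1+8a shRNA. With 4 arrays, many genes share any 1 pattern.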

How the data were processed

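Per the submitters' processing notes, the authors ran RMA, and the deposited values are its log2 signals. As generally run, RMA corrects background, normalises the arrays to each other and combines probes. It gives no detection call, so low values may be background. For the RMA version, annotation and build, the sources used here give nothing. Biotin-labelled cDNA came from 250 ng of total RNA, per the labels' protocols. Of 70523 features, 67528 are transcript clusters, of which 23781 carry 1 symbol in the platform table, 1543 several and 42204 none. The cluster with the highest mean was taken per gene (479 genes had several), which gave 22465 genes. Each measured gene of the 9 had 1 such cluster.

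Groups were compared in limma 3.58.1 (R 4.3.3; lmFit and eBayes, without a replicate term), with Benjamini-Hochberg adjustment over all 22465 genes and a threshold of 0.05. Each fit has 2 residual degrees of freedom plus 5.41 borrowed from all genes. No depth exists for arrays, and their number limits the precision. Median log2 signals per array were 6.16 to 6.25. The SD of the difference between replicates was 0.177 in the control pair and 0.171 in the LSD1+8a pair.

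The 9 genes, the wider lists and the alternatives were chosen with earlier results of these data known. The text names the 9, KDM1A, each measured CDK inhibitor gene and up to 6 called genes of each further list by size. It also names 3 genes nearest in pattern to MDM2 and to CDKN1A. HAND2, DBH and CDH19 (markers), CDK4, CCND1, CCND2 and CCND3 were chosen after their values were seen. Promoter windows are RefSeq's. Figures were drawn with matplotlib 3.10.9.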

Additional observations from a re-analysis of the deposited data

How the results depend on the processing

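Settings are taken in turn, each against 3 of the 7 genes lower, 0 higher, 5 of 36 p53 targets lower, 0 higher, 1 of 6 CDK inhibitor genes lower, 0 higher, and 36 of 42 proliferation genes lower. Quantile normalization and cyclic loess each gave 1 of the 7 lower. Each also gave 2 p53 targets lower and 1 higher, and 0 CDK inhibitor genes lower and 1 higher. Over all 22465 genes quantile normalization called 1433 higher and 1882 lower, and cyclic loess 932 higher and 2074 lower. Adjusting over all transcript clusters left 0 of the 7, 0 p53 targets, 0 CDK inhibitor genes and 13 proliferation genes lower. That alternative tests 67528 clusters in place of 22465 genes, and it called only 56 of all clusters higher and 329 lower. Beside so few calls, a count of 0 there says nothing particular about these genes. An adjusted p of 0.01 left 0, 0, 0 and 6, and one of 0.10 gave 9 p53 targets lower, 3 higher and 1 CDK inhibitor gene higher. Calls over all genes were not counted at these thresholds, so the list counts there have no background beside them. Trended moderation gave 1 CDK inhibitor gene higher, as did keeping genes above the median level, which also gave 1 p53 target higher and dropped SESN1. With 1 array left out the 7 gave 0 to 1 higher and 0 to 1 lower, the p53 targets 0 to 2 higher and 0 to 2 lower, the CDK inhibitor genes 0 to 1 higher and 0 lower, and the proliferation genes 0 to 28 lower. SESN1 then ranged from -0.41 to 0.0050 and turned sign without control replicate 2. BAX and GADD45A kept their direction and stayed uncalled in all 13 alternatives. Where no cause is named, the cause was not tested.

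With the replicate number as a replicate block, limma called 4425 of all genes higher and 3529 lower, against 2721 and 2524. The 7 again gave 3 lower, the p53 targets 8 lower and 1 higher, and the CDK inhibitor genes 1 higher. Deviations from the group means correlated at r = 0.0232 across genes between the replicate 1 arrays (genes are not independent replicates). That cannot show whether arrays of the same number were handled together, which the labels do not say. The main fit used no pairing. Robust moderation and the mean over clusters moved none of these counts by more than 1.5 times. Array number, and for dim genes signal near background, limit what could be seen.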
